A study of Mus musculus with 6 samples.

Results

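Klhl13 and 4 genes that act with it in Cullin 3 ubiquitin ligases were followed in mouse embryonic stem (ES) cells labelled as a Dppa4 knockout. The genes were Klhl13, Klhl9, Klhl21, Cul3 and Rbx1, 5 of 18193 with a probe set of their own. All probe sets that the platform annotation assigns to exactly 1 of these symbols were taken, 11 of 45037 tested. Klhl13 was chosen by its lower signal in knockout than in parental arrays and the others as its known partners, so the values of all 5 in this contrast are a description and carry no test. The study hybridised total RNA to Affymetrix arrays, 3 from a Dppa4 knockout line (CI#243.12) and 3 from the Dppa4 hemizygous parental line it was compared with (CI#84.2), which has already lost 1 copy of the gene. Each group is 1 cell line, and both were cultured on mouse embryonic fibroblast feeder cells, so RNA of 2 cell types is present on every array. The labels name no other allele or agent. They number the replicates but do not say that these came from separate cultures, so errors and p-values measure the spread between arrays, which may be technical.

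A Cullin 3 ligase is a modular enzyme. The scaffold Cul3 holds the RING protein Rbx1, which recruits a ubiquitin-charged E2 enzyme, and at its other end binds the BTB domain of an adaptor whose kelch repeats hold the substrate. Klhl9 and Klhl13 are closely related BTB-kelch adaptors that work together, and in human cells they and Klhl21 direct Cul3 to the mitotic kinase Aurora B. In mouse ES cells the X-linked Klhl13 has also been reported among genes whose dosage affects the exit from pluripotency.

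RefSeq lists 5 promoter windows for Klhl13 and 1 for each partner. The arrays do not show which start of Klhl13 was used, so the sequences of its outermost and innermost listed starts are printed with that of its paralogue Klhl9 for contrast. Each run is the 250 bases before a RefSeq transcript start (GRCm38.p6, minus strand), 5′ to 3′, with every CG dinucleotide in capitals. The outermost Klhl13 run overlaps the annotated span of the gene, which reaches chrX:23365161.
Klhl13 outermost, chrX:23365083-23365332: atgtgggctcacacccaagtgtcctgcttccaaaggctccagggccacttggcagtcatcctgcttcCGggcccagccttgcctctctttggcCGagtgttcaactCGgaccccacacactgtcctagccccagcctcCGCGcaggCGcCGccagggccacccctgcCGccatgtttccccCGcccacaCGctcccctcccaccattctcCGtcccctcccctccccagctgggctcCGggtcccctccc
Klhl13 innermost, chrX:23266803-23267052: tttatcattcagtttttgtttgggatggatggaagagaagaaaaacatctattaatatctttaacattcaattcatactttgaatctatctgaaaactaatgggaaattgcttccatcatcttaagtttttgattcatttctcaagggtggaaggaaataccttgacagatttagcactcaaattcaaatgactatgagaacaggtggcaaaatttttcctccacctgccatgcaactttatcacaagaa
Klhl9, chr4:88722509-88722758: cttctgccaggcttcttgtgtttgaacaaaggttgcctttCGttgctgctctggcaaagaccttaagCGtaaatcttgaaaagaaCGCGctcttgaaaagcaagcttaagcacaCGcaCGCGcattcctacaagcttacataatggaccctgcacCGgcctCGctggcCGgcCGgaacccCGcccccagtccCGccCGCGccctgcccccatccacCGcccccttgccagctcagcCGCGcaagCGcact
The outermost Klhl13 window held 12 CG and the innermost 0, and those between them held 12, 7 and 1. Klhl9 held 19, Klhl21 held 18, Cul3 held 23 and Rbx1 held 24, against a median of 6 over 32817 such windows. The E-box CACGTG, searched on both strands, was in none of the windows of the 5 genes and in 6.02% of all windows. The letters GCGGGA, on either strand and including a CG, were in the windows of Klhl9, Cul3 and Rbx1 but in none of those of Klhl13 and Klhl21, and in 16.9% of all windows.

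The labels were first set against the arrays. The targeted gene Dppa4, on its single probe set, changed by -1.63 (log2, SE 0.08, adjusted p = 0.000112, limma). Its knockout arrays read 8.68 to 8.84, which left 32.2% of the parental signal, and the position of that probe set relative to the deletion is not known here. All 10 ES cell markers and all 11 measured feeder markers lay above the background level of 3.78, as did Dppa4 on the knockout arrays; that level is the 95th percentile of 80 olfactory and vomeronasal receptor probe sets. The mean of the ES markers over the list ran from 11.10 to 11.15 in parental and from 10.95 to 11.01 in knockout arrays. The feeder markers ran the other way, from 10.83 to 10.93 in parental and from 10.98 to 11.06 in knockout arrays. Neither list's groups overlapped, 0 members of either passed limma's test, and 3 ES markers were lower and 2 feeder markers higher at an unadjusted p under 0.05, where 6.37% of all genes were lower and 4.66% higher. Among ES markers the largest changes were those of Fbxo15 (-0.57, adjusted p = 0.119) and Nanog (-0.49, adjusted p = 0.122), and among feeder markers those of Pdgfrb (0.27, adjusted p = 0.439) and Lum (0.25, adjusted p = 0.449). The ES markers did not all move one way, and their median change was -0.10. Dppa5a, Utf1 and Tdgf1 were higher (0.08, 0.07 and 0.13) and the other ES markers lower. In such mixed RNA, fewer cells of a type and less RNA per cell cannot be told apart.

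Klhl13, the substrate adaptor, was lower in knockout cells on both of its probe sets. On 1416242_at it read 8.0, 8.17 and 8.04 in the parental and 6.08, 5.89 and 5.86 in the knockout arrays. The groups were separated by 1.92 log2 units, while arrays of a group lay within 0.22 of each other. The mean went from 8.07 ± 0.09 to 5.94 ± 0.12 (SD, n = 3), a log2 change of -2.13 (SE 0.09, 95% interval -2.33 to -1.92). Knockout cells thus kept 22.9% of the parental signal, a 4.37-fold difference.

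On 1448269_a_at Klhl13 read 9.71, 9.59 and 9.54 in the parental and 7.96, 7.17 and 7.51 in the knockout arrays. The knockout arrays were less alike on this probe set, spanning 0.79 against 0.17 in parental arrays, yet the highest of them lay 1.58 below the lowest parental array. The mean went from 9.61 ± 0.09 to 7.55 ± 0.40 (SD, n = 3), a change of -2.07 (SE 0.18, 95% interval -2.47 to -1.66) that left 23.9% of the signal. Knockout replicate 1 was the highest of the knockout arrays on both probe sets. The changes on the 2 probe sets differed by less than their errors. All knockout values remained above the background level, and whether the remaining RNA came from ES cells or feeders was not measured.

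Of 45037 probe sets, 18 fell by a log2 change of 2 or more and 0 rose by as much, and the Klhl13 probe sets held places 16 and 17 in the order of falls. Of the 11 member probe sets, 2 passed the threshold for a lower signal (limma, Benjamini-Hochberg adjusted p under 0.05 over the whole table), both of Klhl13, where 0.333% of all probe sets did. None passed for a higher signal, which 0.0688% of all probe sets did. Klhl13 kept its call without any single array, at -2.19 to -2.08 on 1416242_at and -2.27 to -1.88 on 1448269_a_at. Klhl13 was chosen by this contrast, so its calls are a description and not a test. Fbxo15, the ES marker that differed most, changed by -0.57. The part that the shift in ES and feeder markers has in the change of Klhl13 was not tested.

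**Figure D1:**
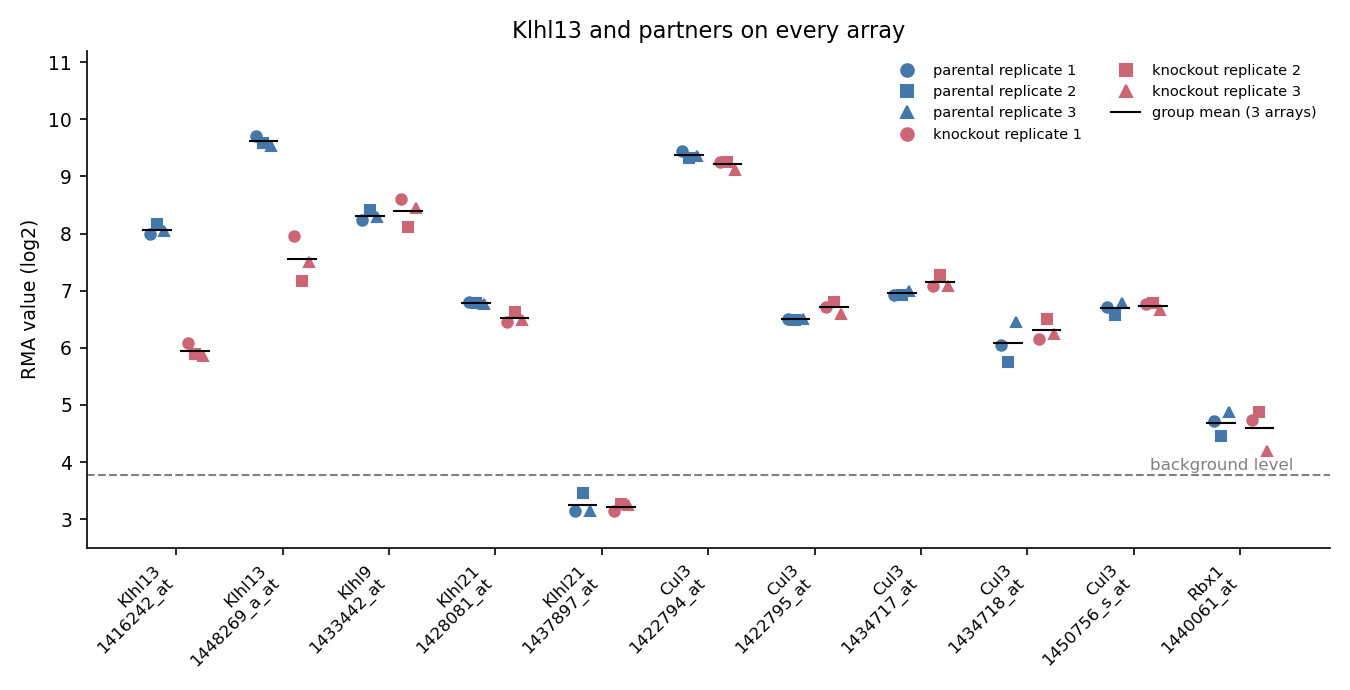
RMA values (log2) of the 11 member probe sets on each array, with parental arrays in blue, knockout arrays in red and a bar at each group mean; the dashed line is the background level of 3.78. The Klhl13 groups lie 1.92 and 1.58 log2 units apart, while those of the other genes overlap or lie within 0.14 of each other. Levels of different probe sets cannot be set against each other.

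Klhl9, the paralogue that pairs with Klhl13, gave no difference beyond the spread of its arrays. Its single probe set 1433442_at read 8.24, 8.41 and 8.29 in parental and 8.61, 8.12 and 8.44 in knockout arrays. The groups overlapped, with the highest and the lowest array both in the knockout group. The change was 0.08 (SE 0.12), with an interval from -0.21 to 0.36 that holds a knockout signal of 86.5% to 129% of the parental one.

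Klhl21, the third adaptor, gave a small decrease on the probe set above background. On 1428081_at it read 6.81, 6.78 and 6.77 in parental and 6.46, 6.63 and 6.48 in knockout arrays. Every knockout array lay below every parental array, by at least 0.14. The change was -0.26 (SE 0.08, interval -0.44 to -0.09), or 83.3% of the parental signal, and did not reach the threshold over the whole table. The other probe set, 1437897_at, lay below background in both groups, from 3.15 to 3.45 in parental and from 3.15 to 3.26 in knockout arrays, and its change of -0.03 bounds nothing about the transcript.

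Cul3, the scaffold, was read by 5 probe sets that did not move one way. On 1422794_at it read 9.44, 9.33 and 9.36 in parental and 9.26, 9.25 and 9.12 in knockout arrays, a change of -0.17 (SE 0.08, interval -0.34 to 0.01) with no overlap. On 1422795_at it read 6.51, 6.48 and 6.50 in parental and 6.72, 6.80 and 6.60 in knockout arrays, a change of 0.21 (SE 0.08, interval 0.03 to 0.39), also with no overlap but in the opposite direction. The probe set 1434717_at resembled the latter, with 6.93, 6.93 and 7.0 in parental against 7.09, 7.27 and 7.09 in knockout arrays and a change of 0.20 (SE 0.08, interval 0.01 to 0.38). These 3 shifts were between 1.12-fold and 1.16-fold, and the files do not give which part or isoform of Cul3 each probe set reads.

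The remaining Cul3 probe sets overlapped between groups. On 1434718_at parental arrays alone spread over 0.71 log2 units, and the change was 0.22 (SE 0.17, interval -0.18 to 0.61). On 1450756_s_at the change was 0.04 (SE 0.08, interval -0.15 to 0.23). Across the 5 probe sets the outer bounds of the intervals were -0.34 and 0.61. In the mixed RNA, none of them thus left room for a Cul3 decrease of the size seen for Klhl13. Cul3 in the ES cells alone was not measured.

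Rbx1, the RING subunit, had 1 probe set of its own. On 1440061_at it read 4.72, 4.46 and 4.88 in parental and 4.73, 4.87 and 4.20 in knockout arrays, close to background and with overlap. The change was -0.09 (SE 0.18, interval -0.49 to 0.32). Another 5 probe sets are annotated to Rbx1 together with the pseudogene Rbx1-ps and are not members. Of these, 3 were above background, and 1448387_at, which read 11.27 to 11.30 in parental and 11.29 to 11.33 in knockout arrays, changed by 0.02 (interval -0.14 to 0.18). The changes on 1416577_a_at and 1416578_at were 0.07 and 0.08, so the shared signal of gene and pseudogene was also within 0.27 of the parental level by its widest upper bound.

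Over the 9 partner probe sets, changes ran from -0.26 to 0.22 and 0 passed (limma); with an unadjusted p under 0.05 there were 1 lower and 2 higher, against 5.19% and 4.30% of all probe sets. Groups did not overlap for 4 of the 9, 2 lower and 2 higher. Such separation was seen for 14.2% of the whole table, 7.52% lower and 6.71% higher. The central 95% of all probe sets changed by -0.30 to 0.28, a range that holds all 9 partner values. The 95% intervals are per probe set and not adjusted for their number.

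**Figure D2:**
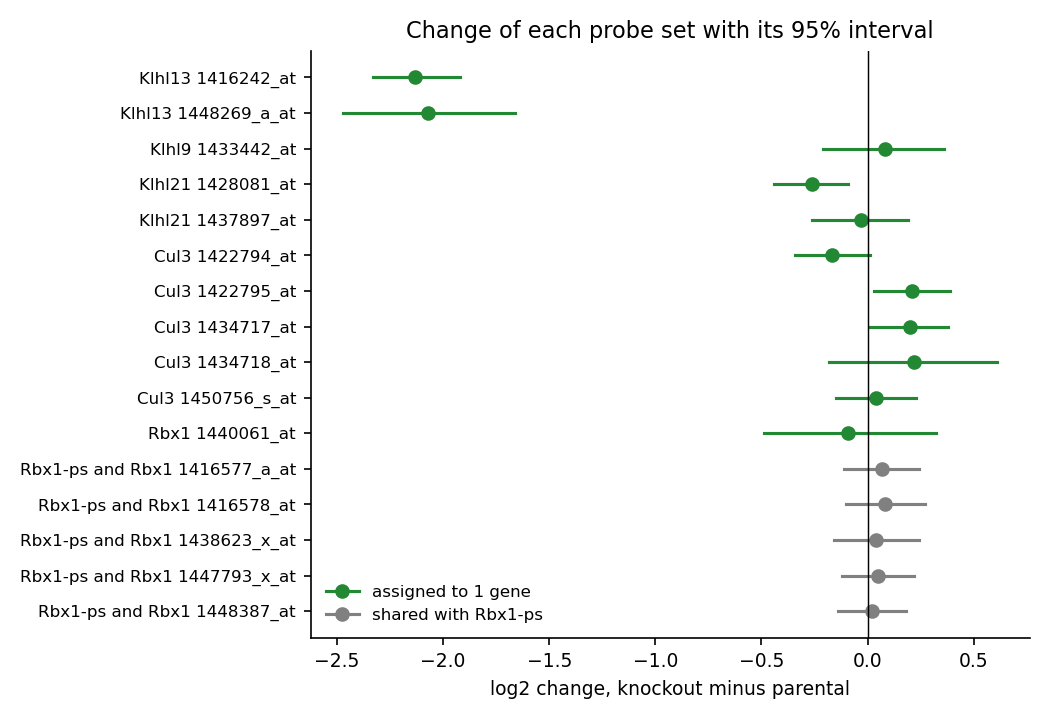
Log2 change (knockout minus parental, horizontal axis) of each member probe set in green and of the 5 probe sets shared by Rbx1 and Rbx1-ps in grey; bars are 95% intervals of the limma fit. The Klhl13 intervals end at -1.92 and -1.66, and no other interval reaches below -0.49.

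The rest of the ligase system and the mitotic genes around Aurora B were read from lists of textbook members, with 1 probe set per gene. Together 6 lists held 129 measured genes, of which 114 lay above background, 2 fell and 0 rose (limma), and 6 were lower and 10 higher at an unadjusted p under 0.05. Over all 18193 genes, 0.511% fell and 0.0934% rose, and without adjustment 6.37% were lower and 4.66% higher. The median change of the 129 genes was 0.02, and that of all genes was 0.00.

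Among the other BTB-kelch adaptors, the family to which Klhl13 belongs, 0 of 41 measured genes passed (limma; 0 lower and 4 higher at an unadjusted p under 0.05), and changes ran from -0.25 to 0.27. The largest above background were those of Kbtbd8 (-0.25, SE 0.14, adjusted p = 0.632) and Ipp (0.25, SE 0.11, adjusted p = 0.524). Keap1, the adaptor that holds the stress-response factor Nrf2, and Klhl22, an adaptor of mitotic kinase Plk1 in human cells, changed by 0.10 and 0.08; both were picked after their values were seen.

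Of 33 other BTB adaptors, 1 fell and 0 rose (limma, with 3 lower and 1 higher at an unadjusted p under 0.05). Kctd15, a BTB protein known for restraining neural crest formation in zebrafish and frogs, read 7.14, 7.04 and 7.14 in parental and 6.57, 6.55 and 6.68 in knockout arrays. Its groups did not overlap, and the change was -0.51 (SE 0.08, adjusted p = 0.0390, limma). The call was lost without any 1 of the 6 arrays, parental or knockout, with adjusted p of 0.0973 to 0.182, and with the replicate block (adjusted p = 0.171).

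No gene of the ligase core or its regulators passed. Among 8 genes, the other cullins and the alternative RING protein Rnf7, 0 passed (limma; 0 at an unadjusted p under 0.05), with Rnf7 at -0.17 (adjusted p = 0.551) and Cul4b at -0.10 (adjusted p = 0.784) the largest changes. Of 22 genes of neddylation and cullin control, which attach or remove Nedd8 and exchange adaptors, 0 passed (limma; 0 lower and 4 higher unadjusted). Cand2 changed by 0.22 (adjusted p = 0.508) and Cops7a, a COP9 signalosome subunit, by 0.21 (adjusted p = 0.396). Among 10 genes, E1 and E2 enzymes together with Arih1, 0 passed (limma, with 2 lower and 1 higher unadjusted). Ube2d1 changed by -0.33 (adjusted p = 0.422) and Ube2e1 by 0.23 (adjusted p = 0.356).

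The mitotic kinases and spindle proteins around Aurora B, the substrate of Klhl9, Klhl13 and Klhl21 ligases, included 1 fall among 15 measured genes and no rise. At an unadjusted p under 0.05 (limma) there were 1 lower and 0 higher. Aurkc, the Aurora kinase of germ cells, read 4.68, 4.97 and 5.27 in parental and 3.74, 3.33 and 4.0 in knockout arrays, 2 of the latter below background. Its change was -1.28 (SE 0.19, adjusted p = 0.0386, limma), and the call was lost without any 1 of the 6 arrays (adjusted p of 0.0539 to 0.161). Aurkb itself changed by 0.08 (SE 0.10, interval -0.15 to 0.30), from 7.74, 7.79 and 7.61 to 7.85, 7.90 and 7.62. Its partners in the chromosomal passenger complex, Incenp, Birc5 and Cdca8, changed by 0.01, -0.01 and 0.11. These 4 genes were picked after their values were seen, and the arrays measure RNA, not the protein that the ligase would act on.

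**Figure D3:**
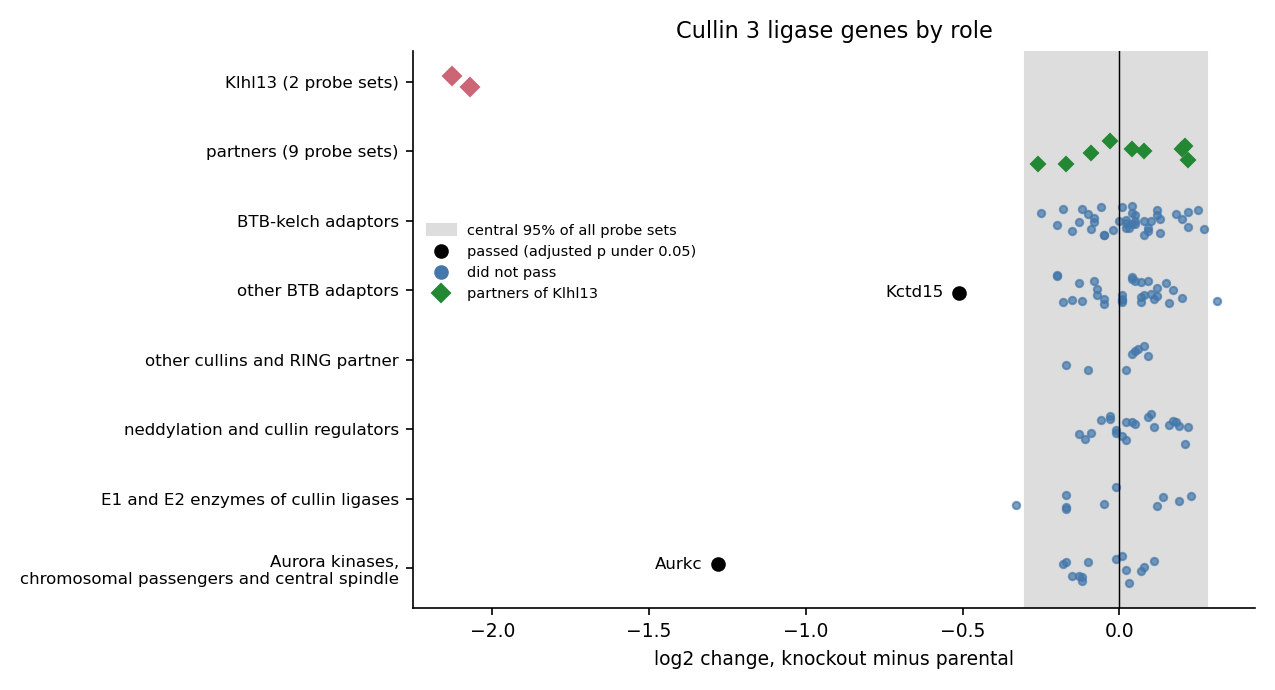
Log2 change (knockout minus parental, horizontal axis) of the Klhl13 probe sets, the 9 partner probe sets and the genes of 6 lists by role, each point 1 probe set; black points passed the test of limma and the grey band is the central 95% of all probe sets, -0.30 to 0.28. Klhl13 at -2.13 and -2.07 stands to the left of Aurkc at -1.28 and Kctd15 at -0.51.

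Klhl13 lies on chromosome X, and its neighbours were read to show how far the change extends along the chromosome. Of the 10 measured genes on either side, 0 of 20 passed (limma; 2 lower and 0 higher at an unadjusted p under 0.05), and their median change was -0.08. The largest changes were those of Dock11 (-0.42, SE 0.08, adjusted p = 0.112), and Lonrf3, a RING finger gene (-0.34, SE 0.09, adjusted p = 0.275). The gene next to Klhl13 on one side, Wdr44, changed by -0.10. The gene next to it on the other, Ppp1r2-ps7, was not above background.

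Over chromosome X, 11 of 617 genes (1.78%) fell, against 0.511% of all genes, a difference that was not tested; 0 rose, and the median change was 0.00. Klhl13, which was chosen by its fall in this contrast, is among the 11 and had the lowest change of these 617. Among 8 X-linked genes of signalling, pluripotency and X inactivation, 0 passed (limma; 0 at an unadjusted p under 0.05). Xist, the RNA that silences an X chromosome, changed by -0.23 (adjusted p = 0.743) and its antisense gene Tsix by 0.16 (adjusted p = 0.816). Tsix lay close to background, with means of 3.79 in parental and 3.96 in knockout arrays, so its change bounds little. Whether the Xist signal came from ES cells or feeders was not measured. Whether the arrays separate the strands is not given in the sources used here. Dusp9, a phosphatase of MAP kinases that has been studied beside Klhl13 in ES cells and was picked after its value was seen, changed by 0.02 (SE 0.09, interval -0.18 to 0.22).

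**Figure D4:**
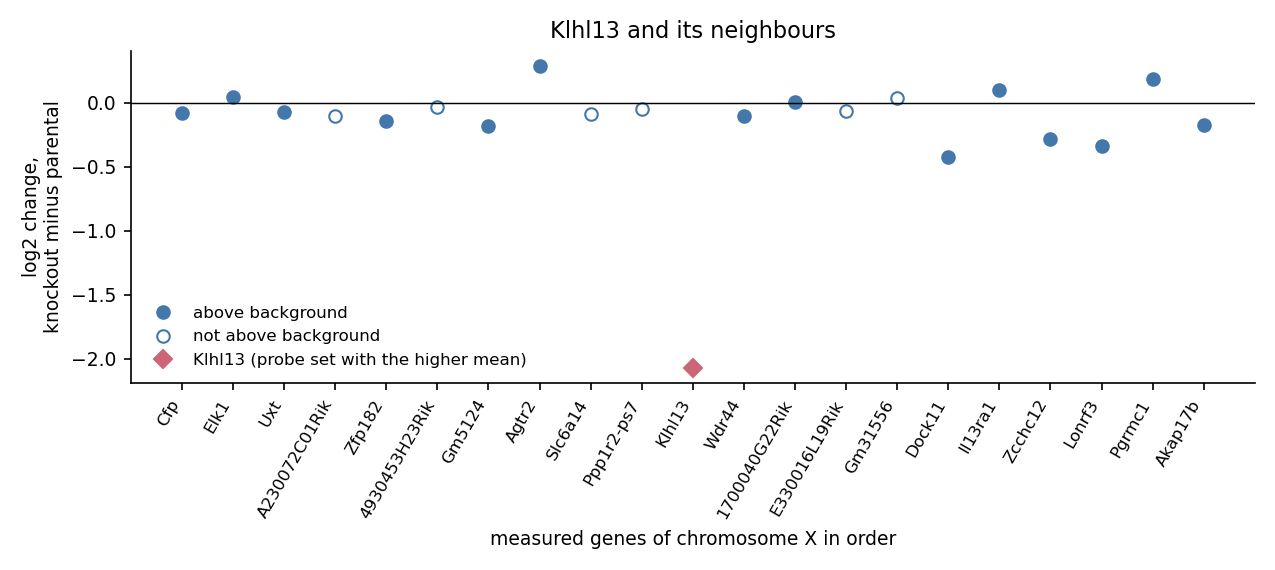
Log2 change (knockout minus parental, vertical axis) of Klhl13 and the 10 measured genes on either side in their order on chromosome X; open points are not above background. Klhl13 is at -2.07, and its neighbours lie between -0.42 and 0.29.

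The genes whose profile was nearest to that of Klhl13 were found from deviations from the parental mean on the 6 arrays, using 1448269_a_at and the Euclidean distance over 18188 other genes. Klhl13 itself lay 3.63 log2 units from a flat profile. The nearest was Dazl, which encodes a germ cell protein that binds RNA, at a distance of 0.46 and with a change of -2.14. Sohlh2, a germ cell transcription factor gene, followed at 0.58 (change -2.39), and the drug efflux gene Abcb1a at 0.60 (change -2.02). 1700029P11Rik lay at 0.73 (change -1.84), and Ddx4, an RNA helicase gene, at 0.74 (change -1.65). All knockout arrays of Dazl and Ddx4 lay at or below background, so these 2 changes are lower limits of the fall. The knockout mean of 1700029P11Rik, 3.73, was also below background, so its change may be a lower limit too. The measure ranks genes by the same contrast that chose Klhl13, over only 6 arrays, and is a description of likeness.

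**Figure D5:**
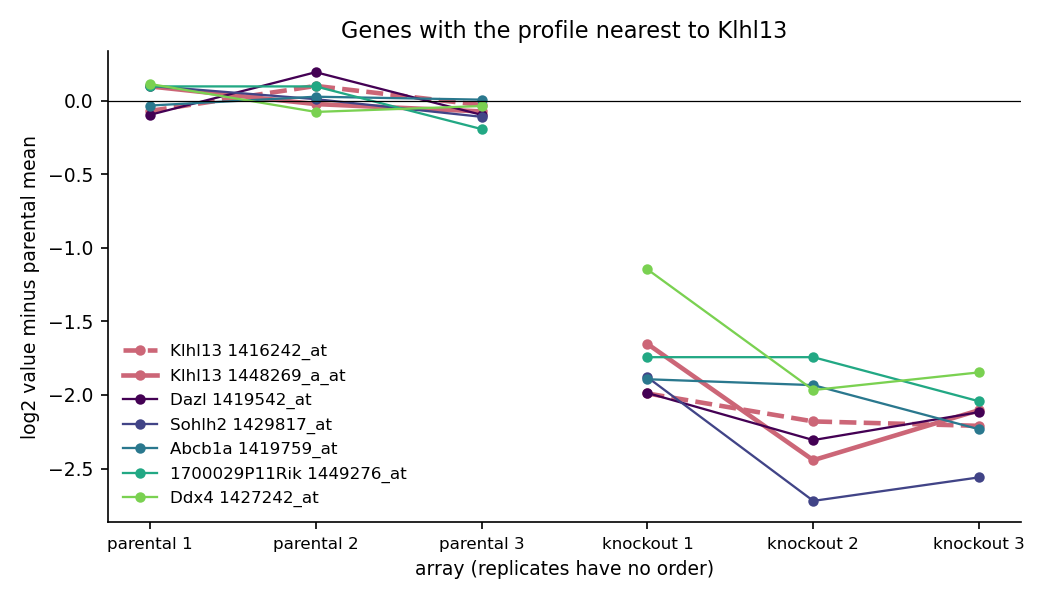
Log2 value minus the parental mean (vertical axis) on each array for both Klhl13 probe sets in red (1416242_at dashed) and for the 5 genes nearest to 1448269_a_at; lines join arrays of a group only to guide the eye. The mean changes of all 7 profiles run from -2.39 to -1.65.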

How the data were processed

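The authors deposited 1 table of log2 values per probe set and array, made per the submitters' processing notes with RMA, which corrects background, equalises array distributions and summarises probes; its version and settings were not given in the sources used here. The log2 scale was read from the values. RMA gives arrays a shared distribution, so a global shift would not show. Of 45101 probe sets, 64 controls were left out. The platform annotation gave 34945 probe sets 1 gene, 932 several and 9160 none; 34741 were matched by gene ID to a RefSeq table (GRCm38.p6) for current symbols and gene order. For gene lists, a gene was its single-gene probe set with the highest mean.

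The contrast of knockout and parental arrays was fitted by limma 3.58.1 under R 4.3.3 (lmFit, eBayes, two-sided, no covariate, Benjamini-Hochberg over 45037 probe sets, threshold 0.05); the code was tested on simulated data. Adjusted p-values are limma's, and the number of arrays limits the precision. With 3 arrays against 3, an exact permutation test cannot go below 0.1. Members and lists were chosen with earlier results of these data known. Named genes were the members, Dppa4, list genes that passed or else the 2 with the largest change above background, and the 5 nearest profiles. Of 140 genes in the 6 lists of the ligase system and the mitotic genes around Aurora B, 129 were measured. Alternatives were further normalization, array centring, a replicate block, other variance priors, filters on probe sets, gene means and leaving out each array.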

Additional observations from a re-analysis of the deposited data

How the results depend on the processing

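Both Klhl13 probe sets kept their direction and moved by less than 1 SD under all 13 alternatives (-2.19 to -2.08 and -2.27 to -1.88). The 115 values of the partner probe sets also moved by less than 1 SD, within -0.32 and 0.40. The replicate block, the other variance settings and the filters on probe sets could not move a change, only its error or adjusted p. Leaving out 1 of 3 arrays could not move it by 1 SD either, because SD here is pooled over both groups and bounds that shift. Only the further normalization and the array centring could have moved a change that far. Klhl13 was chosen by this contrast, so its stability is a description. The sign of partner changes near 0 was not fixed: it turned under some alternative for Klhl9 (-0.03 to 0.21), Rbx1 (-0.22 to 0.11), Klhl21 on 1437897_at (-0.08 to 0.07) and Cul3 on 1450756_s_at (-0.02 to 0.09). Both Klhl13 calls held in 12 of the 13; without moderation of the variances, 0 member probe sets were called lower and 0 of the pathway genes, and 1 probe set was called in the whole table against 181. No alternative called a member or pathway gene higher. With the replicate block the whole table gave 88 calls, the members 2 and the pathway genes 1, Aurkc, so that of the 2 pathway genes only Kctd15 lost its call. A trended, robust variance prior gave 312 calls. Without parental replicate 1, 2 or 3 the table gave 70, 96 and 102 calls, and without knockout replicate 1, 2 or 3 it gave 73, 112 and 79, with 0 pathway genes lower each time. The cause of these shifts was not tested, beyond the fewer arrays of the latter. Replicate numbers gave no steady pairing of the arrays: deviations of same-numbered arrays correlated at 0.112, -0.364 and -0.287. Whether arrays matched in another way share a batch was not tested. The arrays' signal over background limits Rbx1 and 1 Klhl21 probe set.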
